A study of Arabidopsis thaliana with 11 samples.

Results

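Seedlings of Arabidopsis thaliana in which an artificial miRNA lowered PTB1 and PTB2 (MI12) were set against seedlings in which an artificial miRNA lowered PTB3 (MI3). These lines hold 3 of the 11 RNA sequencing libraries of the study, 2 for MI12 and 1 for MI3. The genes compared were those with at least 1 RPKM (reads for each kilobase of a gene in each mega-read sequenced) in at least 2 of the 6 genotypes, which were 19669 of the 33602 genes of the deposited table. The study asked how more or less of the 3 homologues changes splicing, whereas the values here are totals per gene.

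Both lines and all others were in the ecotype Columbia and were 11 days old. They grew under continuous light on Murashige and Skoog medium with sucrose, after stratification in the cold, per the labels' protocols. The labels give MI12 as lowered in At3g01150 and At5g53180 and MI3 as lowered in At1g43190. The other genotypes were the overexpressors of PTB1 (line OE1), of PTB2 (line OE2) and of PTB3 (line OE3), and the unaltered wild type (WT). The sources used here do not give the promoter that drives the artificial miRNAs or the number of independent transformants behind each line. Whole seedlings were pooled, so fewer cells of a type and less RNA per cell cannot be told apart.

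PTB proteins carry RNA recognition motifs that bind pyrimidine-rich stretches of RNA and influence which splice sites are used. PTB1 and PTB2 of Arabidopsis are close relatives of each other and PTB3 is a more distant member of the family. PTB1 and PTB2 are known to regulate the splicing of their own and each other's transcripts. An artificial miRNA replaces the mature miRNA of a natural precursor with a sequence directed at a chosen transcript, and in Arabidopsis the precursor of MIR319a is commonly used for this.

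Because that precursor is itself a gene of the table, its reference sequence is shown first (RefSeq, TAIR10.1, chr4:12352956-12353131, plus strand), with the 21 bases of the natural mature miRNA in capitals. The artificial miRNA sequences are not shown in the sources used here, and the labels do not name the precursor that carried them.

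MIR319a precursor: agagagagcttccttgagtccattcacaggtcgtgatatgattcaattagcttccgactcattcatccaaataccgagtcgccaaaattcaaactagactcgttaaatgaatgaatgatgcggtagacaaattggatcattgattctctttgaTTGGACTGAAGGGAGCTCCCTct

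The natural miR319a (chr4:12353109-12353129, plus strand) is known to guide cleavage of transcripts of TCP transcription factors, which limit cell division in leaves. Its seed, bases 2 to 8, is in capitals below, followed by its site in TCP10 (chr2:13221210-13221230, minus strand). In the sites, capitals mark bases that pair with the miRNA as A with U or G with C, and pairs of G with U are in lower case. miR399d (chr2:14442988-14443008, minus strand), which is induced by phosphate starvation, is shown because its precursor was among the genes furthest apart between the lines. It targets PHO2, a ubiquitin-conjugating enzyme that removes phosphate transporters, and a matching site in PHO2 is given here (chr2:14281884-14281904, minus strand). IPS1, a non-coding RNA, holds a site (chr3:3051224-3051247, plus strand) that pairs with miR399 except for a bulge opposite its middle and 4 mismatches, and so sequesters it.

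ath-miR319a: tTGGACTGaagggagctccct

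TCP10 site of miR319a: AaGGgGtaCCCTTCAGTCCAg

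ath-miR399d: tGCCAAAGgagatttgccccg

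PHO2 site of miR399d: ttGGGCAAATCTCCTTTGGCA

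IPS1 site of miR399d: ttGGGCAAcTtctaTCCTTTGGCA

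The table holds 1 value per gene and genotype, which is the authors' value for the 2 MI12 libraries together and the single library of MI3. Replicate spread is therefore unknown, none of the differences given here could be tested, and a library and its genotype cannot be told apart. Differences are MI12 minus MI3 on the log2(RPKM + 1) scale, and a difference of at least 1 on that scale is called 2-fold. Low values lie on steps of whole reads, and by these steps MI12 rested on about 95.4 mega-reads, MI3 on 46.4 and the other genotypes on 80.0 to 96.5. The median gene was counted by 2055 reads in MI12 and 1047 in MI3. Exact 95% intervals of ratios come from those reads and hold counting error alone, as libraries without molecular identifiers can count a molecule repeatedly.

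The targeted genes were as the labels state. PTB1 (AT3G01150, chr3:51496-54544) had 2.54 RPKM in MI12, 7.70 in MI3, with 603 in the PTB1 overexpressor, 6.49 in the PTB2 overexpressor, 9.42 in the PTB3 overexpressor and 9.46 in WT. PTB2 (AT5G53180, chr5:21568131-21571904) had 4.01 RPKM in MI12, 8.04 in MI3, with 5.74 in the PTB1 overexpressor, 343 in the PTB2 overexpressor, 8.23 in the PTB3 overexpressor and 9.03 in WT. Of the 6 columns MI12 was the lowest for both genes. PTB3 (AT1G43190, chr1:16275108-16278742) had 18.4 RPKM in MI12, 3.54 in MI3, with 21.3 in the PTB1 overexpressor, 20.1 in the PTB2 overexpressor, 65.4 in the PTB3 overexpressor and 19.5 in WT, and MI3 was the lowest. The log2 differences between the lines were -1.30 for PTB1, -0.85 for PTB2 and 2.09 for PTB3. The ratio of MI12 to MI3 was 0.330 for PTB1 (95% interval 0.3002 to 0.363), 0.499 for PTB2 (0.463 to 0.537) and 5.19 for PTB3 (4.77 to 5.65).

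MIR319a was high in both artificial miRNA lines. It had 316 RPKM in MI12 and 261 in MI3, against 0.058 in OE1, 0 in OE2, 0.315 in OE3 and 0.121 in WT. The lines differed from each other by 0.27 on the log2 scale, a ratio of 1.21 (95% interval 1.15 to 1.27). Whether these reads came from a transgene was not tested. The loci MIR319b and MIR319c, which share the seed, had 0.365 and 0.317 RPKM in MI12, 1.12 and 0.108 in MI3, and 0.807 and 0.269 in WT, and were below the minimum level for comparison.

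The known miR319 targets were level or higher in MI12 than in MI3. TCP10 had 22.9 RPKM in MI12, 10.9 in MI3 and 23.4 in WT, a log2 difference of 1.01. TCP4 had 13.1 RPKM in MI12, 8.77 in MI3 and 14.4 in WT, and TCP3 had 3.35, 2.05 and 3.93 RPKM in the same genotypes. TCP10 alone among the 7 target genes listed was past 2-fold, and the log2 differences of TCP4 (0.53), TCP3 (0.51), TCP24 (0.16) and TCP2 (0.10) lay between 0 and 1. MYB33 and MYB65, which belong to another family of transcription factors, differed by 0.42 and 0.31.

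**Figure D1:**
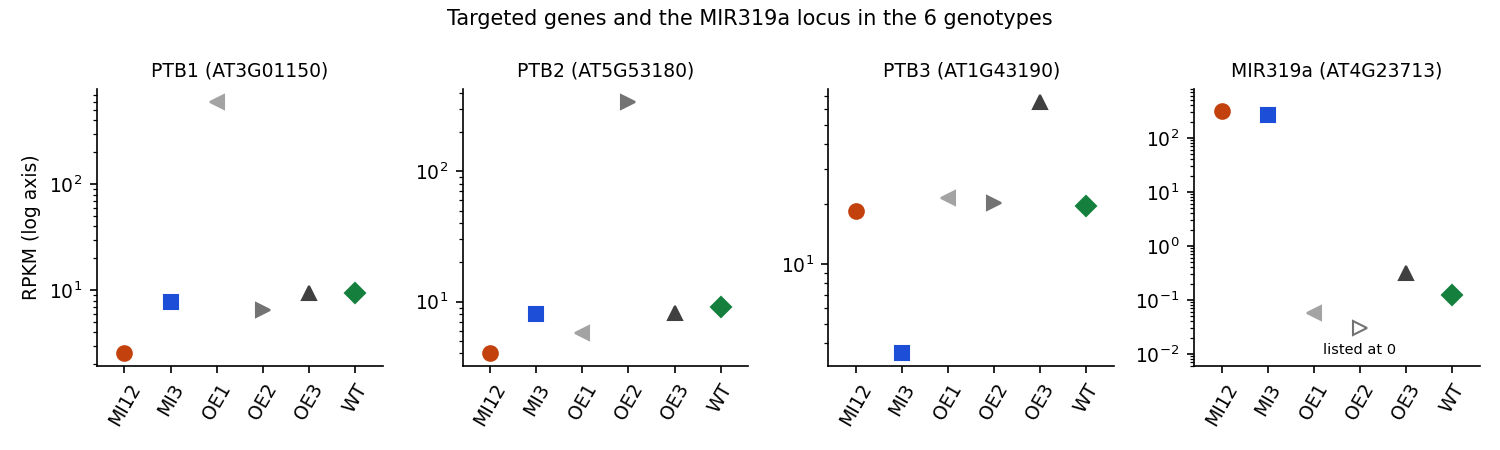
RPKM on a log axis, scaled separately in each panel, of PTB1, PTB2, PTB3 and MIR319a in the 6 genotypes, each point being the authors' value for a genotype and the open marker a value of 0. MI12 is lowest for PTB1 and PTB2, MI3 is lowest for PTB3, and MIR319a is at 316 RPKM in MI12 and 261 in MI3.

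Across all genes, MI12 exceeded MI3 by 2-fold or more at 348 and lay below it by 2-fold or more at 567, which is 1.77% and 2.88% of those compared (4.65% in either direction). The median log2 difference was -0.05, with quartiles at -0.26 and 0.15. The shares were larger at high than at low expression. Between 1 and 5 RPKM 1.41% of genes were higher and 1.98% lower, and at 100 RPKM or more 3.42% were higher and 6.55% lower. Just inside and outside the threshold stood SNG1 at 1.0005 and AT5G18600 at 0.9998 on the high side, and BGLU11 at -1.00003 and AT1G07590 at -0.99987 on the low side. On the ratio of RPKM itself, without the pseudocount, the interval lay wholly past 2-fold at 354 genes higher and 621 lower.

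**Figure D2:**
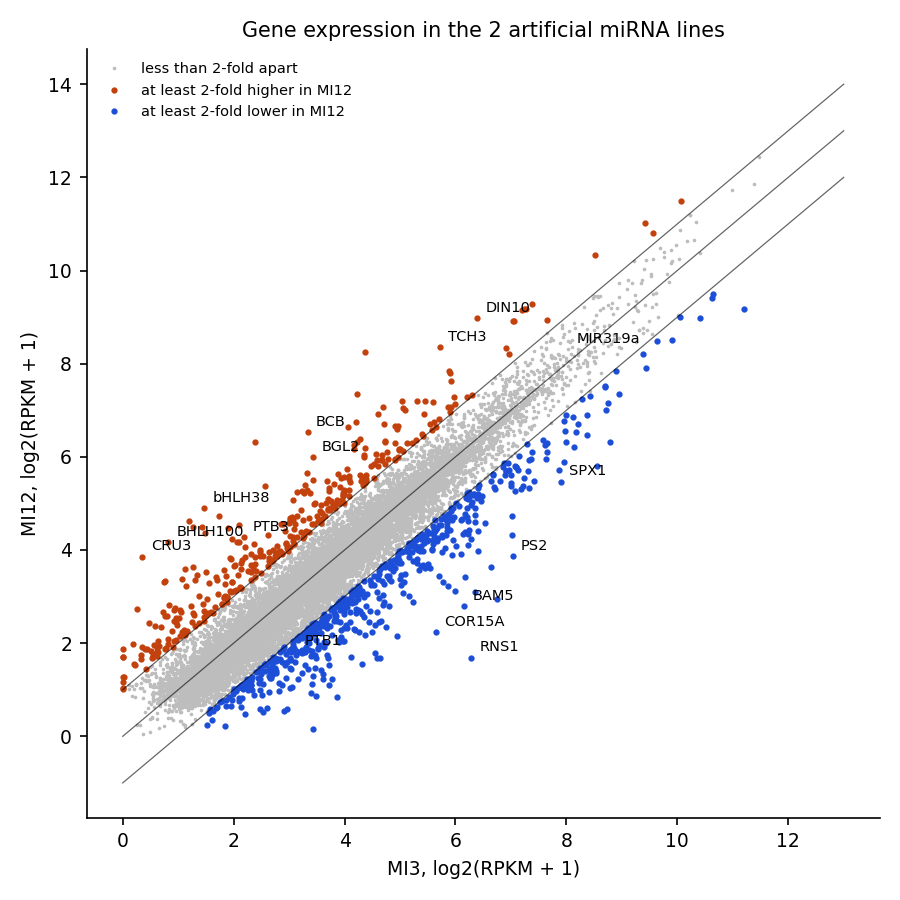
Each point is a gene, with log2(RPKM + 1) in MI12 on the vertical axis and in MI3 on the horizontal axis, and lines at equality and at 2-fold on each side. The 348 genes at least 2-fold higher in MI12 are in orange and the 567 at least 2-fold lower are in blue. Among the labelled genes, RNS1 and COR15A lie toward MI3 and CRU3 and BHLH100 toward MI12.

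At most of these genes WT was nearer to MI12 than to MI3. Of the genes 2-fold higher in MI12, 309 of 348 (88.8%) had a WT value nearer to MI12 than to MI3, and of those 2-fold lower, 512 of 567 (90.3%), against 69.1% of all genes compared. Only MI3 was at least 2-fold from WT at 251 of the higher and 373 of the lower genes, whereas only MI12 was at 23 and 14. MI12 was 2-fold above WT at 46 genes (0.234%) and 2-fold below it at 53 (0.269%), 99 in all (0.503%). MI3 was 2-fold above WT at 508 genes (2.58%) and 2-fold below it at 407 (2.07%), 915 in all (4.65%), a count that by coincidence equals that between the lines. Both comparisons use the same WT column. MI3 is also the column with a single library and fewer reads, and the part of that in these counts was not tested.

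The PTB3 overexpressor lay between the artificial miRNA lines more often than the other genotypes did. OE3 was between MI12 and MI3 at 313 of 348 higher genes (89.9%) and 517 of 567 lower genes (91.2%), against 54.0% of all genes. For WT the shares were 49.1% and 68.1% (37.0% of all genes), for OE1 54.9% and 39.0% (28.2%) and for OE2 65.5% and 63.1% (33.1%). MI3 was the highest of the 6 columns at 545 of the 567 lower genes, and OE3 was next to it at 372 of them. Over all genes these shares were 35.6% and 19.6%, and the choice of genes with MI3 above MI12 favours a high place for MI3.

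Gene lists covered nutrition, stress, hormones, pigments, photosynthesis and splicing. Of 31 lists, 29 were written by gene name and the other two hold all genes of the chloroplast and of mitochondria. List medians are read beside the median of all genes, -0.05, and counts beside 1.77% higher and 2.88% lower.

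**Figure D3:**
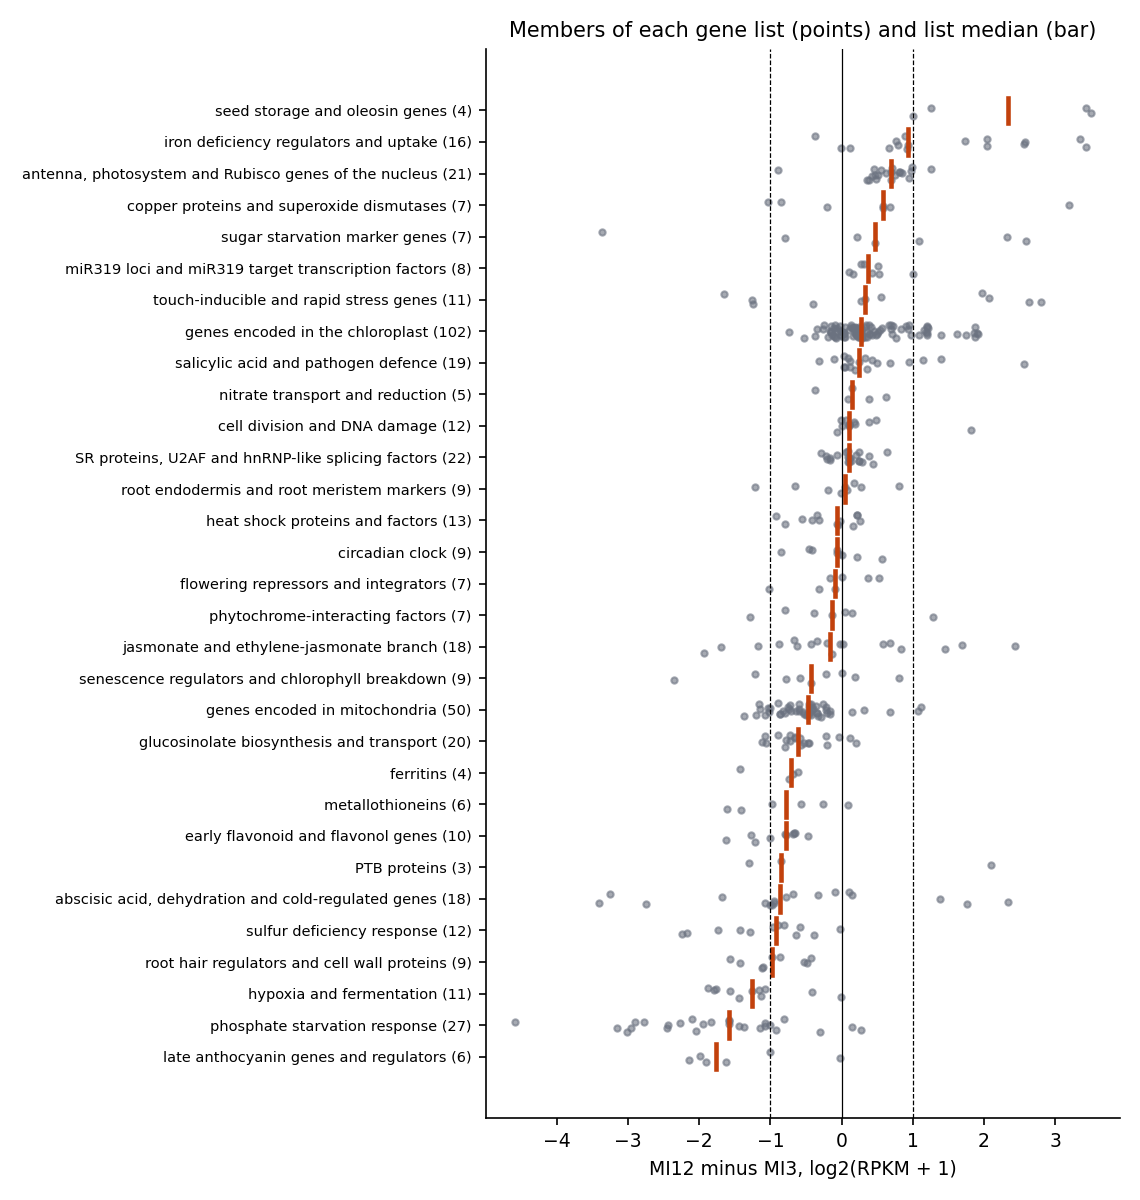
Log2(RPKM + 1) difference, MI12 minus MI3, of each compared member of each gene list (points, with the number of members in brackets) and the list's median (bar); dashed lines mark 2-fold. Late anthocyanin and phosphate starvation genes have the lowest medians, -1.76 and -1.59, and seed storage and iron deficiency genes the highest, 2.34 and 0.93; the late anthocyanin, seed and iron medians depend on the filter on low values.

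Genes of the phosphate starvation response were lower in MI12 than in MI3. Plants short of phosphate raise transporters, secrete phosphatases and ribonucleases, and swap membrane phospholipids for galactolipids and sulfolipids, under the transcription factor PHR1 and its SPX inhibitors. Of 28 listed genes 27 were compared, 22 were 2-fold lower and 0 were 2-fold higher in MI12, and the median log2 difference was -1.59. NPC5, a phospholipase C, was below the minimum level, at 0.092 RPKM in MI12, 0.883 in MI3 and 0.127 in WT.

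RNS1, a ribonuclease that recovers phosphate from RNA outside the cell, was the gene furthest toward MI3 of all those compared at 5 RPKM or more. It had 2.23 RPKM in MI12, 76.6 in MI3, with 2.46 in the PTB1 overexpressor, 8.62 in the PTB2 overexpressor, 19.1 in the PTB3 overexpressor and 3.17 in WT. MI12 was the lowest column and MI3 the highest by a wide margin, and the log2 difference was -4.59. Scavenging enzymes showed the same order of lines. PS2, an inorganic pyrophosphatase, had 13.7 RPKM in MI12, 130 in MI3 and 20.0 in WT (log2 difference -3.15). PEPC1, a phosphatase, had 11.3 RPKM in MI12, 98.6 in MI3 and 13.2 in WT (-3.01), and PAP17, a purple acid phosphatase, had 25.7, 128 and 24.1 RPKM in those genotypes (-2.28).

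Regulators and transporters of the list differed in the same direction, apart from PHR1 and PHO2. MIR399d, the precursor of the miRNA shown above, had 2.19 RPKM in MI12, 23.9 in MI3, 13.9 in OE3 and 1.92 in WT, from 21 reads in MI12 and 111 in MI3. Its decoy IPS1 had 16.4 RPKM in MI12, 73.8 in MI3 and 19.1 in WT, and AT5G03545, annotated as expressed in response to phosphate starvation, had 79.2, 438 and 112 RPKM. Their log2 differences were -2.96, -2.11 and -2.45. PHO2, the miRNA's target, had 35.4 RPKM in MI12, 31.9 in MI3 and 30.5 in WT, and PHR1 had 26.8, 22.1 and 24.4 RPKM. SPX1 and SPX3, inhibitors of PHR1, were lower in MI12 by log2 differences of -2.43 and -2.91, and the transporter PHT1;4 by -1.84. PHT1;1 (-1.44) and PHT1;2 (-1.58) are near-identical neighbours whose reads may be shared. Lipid enzymes followed, with NPC4, a phospholipase C, at -2.77, the galactolipid synthases MGDC and MGD2 at -1.94 and -1.59, and the sulfolipid synthase SQD2 at -1.58.

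In this list MI3 and OE3 were usually the highest columns. MI3 was the highest of the 6 columns for 25 of the 27 members, and OE3 was the next highest for 24 of them, against 35.6% and 19.6% of all genes. MI12 and WT were close, with a median log2 difference of -0.05 between MI12 and WT and of 1.68 between MI3 and WT, both over the 27 members and with the shared WT column. The plot of phosphate and iron genes by genotype shows the squares of MI3 to the right of nearly every phosphate row.

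The binding motif of PHR1, GNATATNC, was searched on both strands in the 300 bases before each gene start. It was present in 8 of the 21 phosphate genes with a promoter that were 2-fold lower in MI12 (38.1%), in 8 of 26 of the whole list (30.8%) and in 1246 of 18963 protein-coding genes compared (6.57%). Over all genes it was present in 13.1% of those 2-fold lower and 7.89% of those 2-fold higher in MI12. A match describes these letters in this window and is not a measured binding site. The window of SPX3 (RefSeq, TAIR10.1, chr2:18606110-18606409, plus strand) is shown because it holds the motif at 2 places, in capitals, which start 213 and 90 bases before the gene.

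SPX3 promoter: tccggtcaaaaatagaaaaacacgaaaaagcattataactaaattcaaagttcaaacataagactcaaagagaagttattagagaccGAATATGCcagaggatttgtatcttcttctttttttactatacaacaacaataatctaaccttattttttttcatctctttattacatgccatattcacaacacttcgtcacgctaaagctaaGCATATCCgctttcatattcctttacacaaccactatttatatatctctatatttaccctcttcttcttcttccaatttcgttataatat

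Iron genes ran the other way. When iron is short, the transcription factors FRU, bHLH38, bHLH39, BHLH100 and BHLH101 switch on the root transporter IRT1 and the reductase FRO2, while ferritins store iron when it is plentiful. Of 17 listed iron deficiency genes 16 were compared, 7 were 2-fold higher and 0 were 2-fold lower in MI12, and the median log2 difference was 0.93 (1.75 with a pseudocount of 0.1 and 1.74 with a minimum of 5 RPKM in 2 columns). MYB72 was at 0 RPKM in both lines and was not compared. bHLH38 had 29.0 RPKM in MI12, 1.78 in MI3, with 36.2 in the PTB1 overexpressor, 6.84 in the PTB2 overexpressor, 8.04 in the PTB3 overexpressor and 12.7 in WT. MI12 was above WT and MI3 below it, each by more than 2-fold, and the log2 difference between the lines was 3.43.

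The close relatives of bHLH38 had the same order. BHLH100 had 17.1 RPKM in MI12, 0.767 in MI3 and 8.88 in WT (3.35), and bHLH39 had 21.1, 2.72 and 10.6 RPKM (2.57). bHLH38 and bHLH39 are similar neighbours whose reads may be shared. IRT1, the main root iron transporter, had 9.17 RPKM in MI12, 1.46 in MI3 and 7.92 in WT (2.05), and FRO2, the ferric chelate reductase, had 2.65, 0.939 and 2.70 RPKM (0.91). AT1G47395 and AT1G47400, both uncharacterized in the annotation, differed by 2.56 and 2.05. FRU, which acts upstream of IRT1, had 2.53 RPKM in MI12, 2.54 in MI3 and 2.81 in WT, and NAS1, a nicotianamine synthase, had 36.4, 47.6 and 32.3 RPKM. MI3 was the lowest of the 6 columns for 12 of the 16 members, against 24.1% of all genes.

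**Figure D4:**
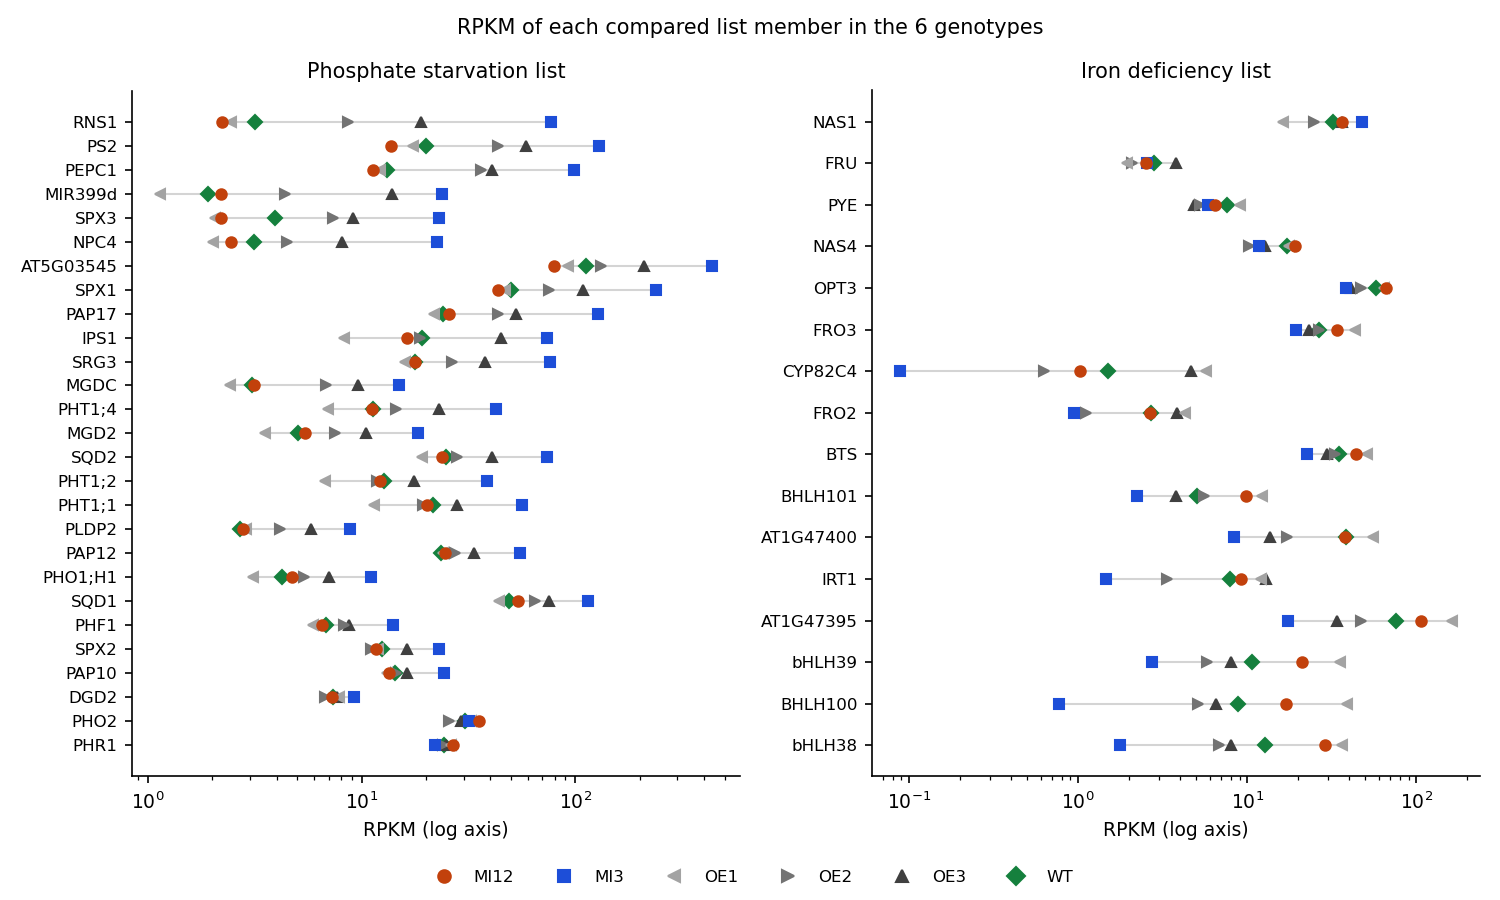
RPKM on a log axis of each compared member of the phosphate starvation list (left) and iron deficiency list (right), ordered by the difference between MI12 and MI3, with a marker for each of the 6 genotypes. MI3 is the highest column for 25 of the 27 phosphate genes and the lowest for 12 of the 16 iron genes.

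Log2 differences of ferritins lay below 0, and for FER1, FER3 and FER4 it was MI12 that stood further from WT. FER1, an iron storage protein of plastids, had 51.4 RPKM in MI12, 140 in MI3 and 138 in WT, a log2 difference of -1.42 between the lines. FER3 had 20.4 RPKM in MI12, 34.8 in MI3 and 38.4 in WT (-0.74). FER2 had 1.19 RPKM in MI12, 2.53 in MI3 and 1.32 in WT, so there MI3 was further from WT. All 4 differences between the lines were below 0, with a median of -0.71 and 1 past 2-fold. For FER1, FER3 and FER4 the overexpressors were below WT too, so MI12 was not alone there. FER1 had 77.9 RPKM in OE1, 40.5 in OE2, which was lower than MI12, and 56.5 in OE3. FER3 had 26.8, 21.2 and 24.3 RPKM in the same overexpressors.

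Copper and metal-binding proteins were mixed. BCB, a blue copper protein, had 91.7 RPKM in MI12, 9.09 in MI3 and 153 in WT (3.20), whereas FSD1, the iron superoxide dismutase, had 229, 472 and 334 RPKM (-1.04). They were the only members past 2-fold of 7 in the copper list, whose median was 0.58. Of 6 metallothioneins, small metal-binding proteins, 2 were 2-fold lower, 0 were 2-fold higher and the median was -0.78. MT2A had 362 RPKM in MI12, 963 in MI3 and 740 in WT, and MT1B had 162, 496 and 203 RPKM.

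Sulfur deficiency genes were lower in MI12, with 5 of 12 compared members past 2-fold, 0 higher and a median of -0.93. LSU1, a small protein that rises when sulfur is short, had 9.93 RPKM in MI12, 50.9 in MI3 and 9.04 in WT (-2.25). ATSDI1, a repressor of glucosinolate synthesis, had 4.22, 22.4 and 3.48 RPKM (-2.17), and LSU2 had 11.5, 40.8 and 13.3 RPKM (-1.74). The list's 13th member, the root transporter SULTR1;1, was below the minimum level, at 0.517 RPKM in MI12, 1.28 in MI3 and 0.438 in WT. Of the glucosinolate genes, which use sulfur for defence compounds, 3 of 20 were 2-fold lower and 0 higher, with a median of -0.62. CYP79F2, BCAT4 and IMS2, all of the methionine-derived branch, differed by -1.12, -1.07 and -1.06. No member of the 5 compared nitrate genes was past 2-fold, and their median was 0.15. NIA2, nitrate reductase, had 464 RPKM in MI12, 355 in MI3 and 479 in WT, and NIR1, nitrite reductase, had 102, 95.7 and 146 RPKM.

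Root hair genes were lower in MI12, and other root markers were not shifted together. All 9 root hair genes had log2 differences below 0, 4 were past 2-fold and the median was -0.97. PRP3, a cell wall protein of root hairs, had 42.2 RPKM in MI12, 127 in MI3 and 35.3 in WT (-1.57). LRX1, a wall-bound extensin, had 14.7, 41.5 and 10.4 RPKM (-1.43), and the expansin EXPA7 had 6.97, 16.3 and 5.46 RPKM (-1.12). MI3 was highest and OE3 next for 8 of the 9. Of 12 listed markers of the endodermis and root meristem 9 were compared, with a median of 0.05 and 1 past 2-fold. That gene was PYK10, a root beta-glucosidase, with 681 RPKM in MI12, 1583 in MI3 and 626 in WT (-1.22). CASP1, which builds the Casparian strip, had 11.4 RPKM in MI12, 10.9 in MI3 and 9.99 in WT. The summed level of all 12 listed markers, compared or not, was 735 RPKM in MI12, 1638 in MI3 and 674 in WT, most of it PYK10. The part of root share in the phosphate and root hair values was not tested.

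Cold, dehydration and abscisic acid genes differed in both directions. Of 18 compared genes 6 were 2-fold lower and 3 were 2-fold higher, with a median of -0.87. COR15A, a chloroplast protein that protects membranes during freezing, had 3.71 RPKM in MI12, 49.0 in MI3, with 3.76 in the PTB1 overexpressor, 11.3 in the PTB2 overexpressor, 3.73 in the PTB3 overexpressor and 4.52 in WT (-3.41). MI3 was the highest column, and OE3 was at the level of MI12. COR15B had 7.51 RPKM in MI12, 80.5 in MI3 and 14.3 in WT (-3.26), and LTI78, a desiccation and cold marker, had 9.74, 71.1 and 17.0 RPKM (-2.75). Receptors for abscisic acid had the opposite order, with PYL5 at 49.7 RPKM in MI12, 8.99 in MI3 and 70.2 in WT (2.34), PYL4 at a difference of 1.76 and PYL6 at 1.38. ABI1, a phosphatase that the receptors inhibit, was at -1.08. Other markers of cold and dehydration were near level, with ERD10 at -0.33, COR47 at -0.09, LTI65 at 0.10 and RAB18 at 0.14.

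CBF1, CBF2 and DREB1A, the transcription factors that switch on COR genes in the cold, were above 1 RPKM in MI3 only and so were not compared. They had 0.056, 0.749 and 0.174 RPKM in MI12, 1.68, 4.51 and 1.54 in MI3, and 0.034, 0.898 and 0.213 in WT. Their binding core, CCGAC, was present in the same 300-base window in 3 of the 6 lower genes of the list, in 27.8% of the list and in 14.99% of the protein-coding genes compared, with 17.0% of all lower genes and 13.9% of all higher genes. The window of COR15A (RefSeq, TAIR10.1, chr2:17712331-17712630, minus strand) holds it 2 times, 142 bases before the gene as the reverse complement and 79 bases before it as written, both in capitals.

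COR15A promoter: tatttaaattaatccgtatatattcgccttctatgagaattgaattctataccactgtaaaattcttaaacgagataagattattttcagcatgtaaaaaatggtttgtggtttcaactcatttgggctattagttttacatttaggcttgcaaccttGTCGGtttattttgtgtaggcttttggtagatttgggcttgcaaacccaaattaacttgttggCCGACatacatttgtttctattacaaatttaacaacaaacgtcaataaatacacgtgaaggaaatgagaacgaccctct

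Flavonoid genes were lower in MI12. All 10 compared early genes, which lead to flavonols, had log2 differences below 0, with 4 past 2-fold and a median of -0.78. TT4, chalcone synthase, had 40.4 RPKM in MI12, 126 in MI3 and 90.1 in WT (-1.62), and FLS1, flavonol synthase, had 7.59, 19.0 and 17.8 RPKM (-1.22). For both genes MI12 was 2-fold below WT and MI3 was not 2-fold from it. Of 10 late anthocyanin genes 6 were compared, and 5 were 2-fold lower, with a median of -1.76. These genes are low, and a minimum of 5 RPKM in 2 columns left MYBL2, a repressor of the pathway, as the sole member, at -0.02. LDOX, an oxygenase of the pathway, had 1.45 RPKM in MI12, 9.77 in MI3 and 1.76 in WT (-2.14), GSTF12 had 1.08, 7.26 and 1.39 RPKM (-1.99) and DFR, dihydroflavonol reductase, had 1.72, 9.19 and 2.02 RPKM (-1.90). In the late steps it was MI3 that stood away from WT. PAP1, an activator of these genes, was above 1 RPKM in MI3 only, at 0.363 RPKM in MI12, 2.40 in MI3 and 0.397 in WT.

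Hypoxia and fermentation genes were lower in MI12 at 9 of 11 members, with 0 higher and a median of -1.26. ADH1, alcohol dehydrogenase, had 38.5 RPKM in MI12, 144 in MI3, with 10.7 in the PTB1 overexpressor, 25.9 in the PTB2 overexpressor, 44.5 in the PTB3 overexpressor and 45.1 in WT (-1.87). SUS4, sucrose synthase, had 12.1 RPKM in MI12, 44.3 in MI3 and 14.9 in WT (-1.79), and AT5G39890, annotated as a putative 2-aminoethanethiol dioxygenase, had 5.45, 21.0 and 6.49 RPKM (-1.77). MI3 was the highest of the 6 columns for 10 of the 11.

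Sugar, touch and jasmonate genes differed in both directions within their lists. Among sugar genes, DIN10, a raffinose synthase family member induced in the dark, had 502 RPKM in MI12, 82.6 in MI3 and 653 in WT (2.59), and ASN1, asparagine synthetase, had 120, 23.3 and 140 RPKM (2.32). BCAT-2, a branched-chain amino acid transaminase, was also higher (1.08). BAM5, a beta-amylase induced by sugar, ran opposite with 5.91 RPKM in MI12, 70.5 in MI3 and 4.49 in WT (-3.37). The list's median was 0.47 over 7 genes, with 3 higher and 1 lower.

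Of 15 touch and rapid stress genes 11 were compared, 4 were 2-fold higher, 3 were 2-fold lower and the median was 0.32, which turned to -0.40 with no filter on low values or with 1 RPKM required in MI12 or MI3. TCH3, a calmodulin-like protein, had 326 RPKM in MI12, 51.5 in MI3 and 402 in WT (2.64). PHI-1 had 40.4, 4.94 and 84.3 RPKM (2.80) and the expansin-like EXLA1 had 75.3, 17.1 and 126 RPKM (2.08). CML38, another calmodulin-like protein, was on the other side, with 4.46 RPKM in MI12, 16.2 in MI3 and 5.30 in WT (-1.66), as were the transcription factors ERF5 (-1.26) and STZ (-1.24).

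Salicylic acid and pathogen defence genes were mostly level, with 3 of 19 higher, 0 lower and a median of 0.24. BGL2, a beta-1,3-glucanase, had 62.6 RPKM in MI12, 9.77 in MI3 and 53.6 in WT (2.56), WRKY18 differed by 1.40 and CYP71A13, of camalexin synthesis, by 1.14. PR1, the usual marker of the pathway, had 22.2 RPKM in MI12, 18.6 in MI3 and 30.0 in WT. Of 18 compared jasmonate and ethylene genes 3 were higher and 3 lower, with a median of -0.17. TAT3, a tyrosine aminotransferase induced by jasmonate, had 22.2 RPKM in MI12, 3.29 in MI3 and 7.96 in WT (2.44). HCHIB, a basic chitinase, had 15.9, 63.4 and 21.1 RPKM (-1.93), PR4 had 78.2, 255 and 107 RPKM (-1.69) and AOC1, of jasmonate synthesis, had 20.7, 47.8 and 18.03 RPKM (-1.17). The defensins PDF1.2 and PDF1.2c, at 1.45 and 1.69, belong to a family of near-identical genes, so their values are uncertain.

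Nuclear photosynthesis genes were somewhat higher in MI12. The median over 21 genes was 0.69, with 20 above 0 and 1 past 2-fold. CAB3, an antenna protein, had 1797 RPKM in MI12, 752 in MI3 and 940 in WT (1.26), and CAB1 had 5571, 2840 and 4083 RPKM (0.97). The CAB and Rubisco small subunit genes are near-identical copies. LHCB4.3, a rarer antenna protein, was the exception, with 4.27 RPKM in MI12, 8.82 in MI3 and 19.8 in WT. Under quantile normalization the list's median was 0.39.

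Among 102 compared chloroplast genes 16 were 2-fold higher in MI12 and 0 lower, with a median of 0.27. ATCG01180 had 580 RPKM in MI12, 153 in MI3 and 281 in WT, and ATCG00950 had 620, 165 and 303 RPKM. These genes had similar values in every genotype, so their reads may be shared and they may not be separate examples. ATCG00980 was listed at 0 in MI3 and had 2.68 RPKM in MI12. Of 50 compared mitochondrial genes 8 were lower and 2 higher, with a median of -0.47. Small-subunit ribosomal RNA was also higher in MI12, at 2325 RPKM in MI12, 1197 in MI3 and 1391 in WT for AT3G41768. Organelle and ribosomal RNA depend on how RNA was selected for the library, and the part of library preparation in these values was not tested. Without organelle and ribosomal RNA genes 328 genes were higher and 559 lower.

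Seed storage genes had the highest list median, 2.34, over 4 compared members of 10. It was 1.12 with no filter on low values, 1.39 with 1 RPKM required in MI12 or MI3 and 3.89 with a pseudocount of 0.1. CRU3, a cruciferin, had 13.5 RPKM in MI12, 0.278 in MI3, with 6.18 in the PTB1 overexpressor, 1.81 in the PTB2 overexpressor, 2.29 in the PTB3 overexpressor and 1.03 in WT (3.50). CRA1, another cruciferin, had 23.8 RPKM in MI12, 1.30 in MI3, with 12.7 in the PTB1 overexpressor, 9.42 in the PTB2 overexpressor, 12.8 in the PTB3 overexpressor and 2.79 in WT (3.43). MI12 was the highest column for both and MI3 the lowest. OLEO1, an oil body protein, had 1.42 RPKM in MI12, 0.019 in MI3 and 0.328 in WT. The other 6 members reached 1 RPKM in at most 1 column and were not compared; among them SESA1 had 2.42 RPKM in MI12, 0.060 in MI3 and 0.229 in WT.

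The medians of several groups were close to that of all genes. Of 22 compared splicing factors, among them SR proteins and U2AF subunits that help choose splice sites, 0 were past 2-fold in either direction, and the log2 differences ran between -0.28 and 0.64 with a median of 0.10. GRP7, a glycine-rich RNA-binding protein, had 610 RPKM in MI12, 683 in MI3 and 808 in WT, and CCR1, its relative, had 169, 206 and 188 RPKM. Of 9 clock genes 0 were past 2-fold, beside 4.65% of all genes. Their log2 differences ran between -0.85 and 0.56 with a median of -0.06. LHY had 35.1 RPKM in MI12, 36.8 in MI3 and 24.6 in WT, and TOC1 had 25.5, 26.1 and 31.1 RPKM. CCA1 had 25.2 RPKM in MI12, 25.1 in MI3 and 22.6 in WT. Of 12 genes of cell division and DNA damage 1 was 2-fold higher, with a median of 0.11. That gene, the transcription factor NAC044, had 5.80 RPKM in MI12, 0.924 in MI3 and 0.733 in WT (1.82), so here MI12 was away from WT. OE1 was above WT as well, at 2.68 RPKM, with OE2 at 1.08 and OE3 at 1.01.

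Growth and flowering regulators were mixed in single genes. SVP, a repressor of flowering, had 9.12 RPKM in MI12, 19.4 in MI3 and 12.4 in WT (-1.01), the only one of 7 compared flowering genes past 2-fold. Among 7 phytochrome-interacting factors, which promote growth in the dark, PIF7 had 10.7 RPKM in MI12, 3.81 in MI3 and 8.38 in WT (1.28), and PIL2 had 4.23, 11.8 and 5.38 RPKM (-1.29). NAP, a transcription factor of leaf senescence, had 6.40 RPKM in MI12, 36.8 in MI3 and 9.32 in WT (-2.35), and NAC6, another such factor, had 12.7, 30.7 and 21.1 RPKM (-1.21), while the median of the 9 compared senescence genes was -0.43.

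The median difference of heat shock genes between the lines was close to that of all genes, and most lay below WT in both. Of 13 compared genes 0 were 2-fold apart between MI12 and MI3 and the median was -0.06, whereas the median difference from the shared WT column was -1.16 in MI12 and -0.97 in MI3. HSP90.1, a chaperone, had 14.9 RPKM in MI12, 15.4 in MI3 and 34.4 in WT. HSP17.4, a small heat shock protein, had 1.49, 1.07 and 6.54 RPKM. OE3 was lower still for both, at 8.53 and 0.739 RPKM. OE1 and OE2 were below WT too, at 30.5 and 16.1 RPKM for HSP90.1 and at 4.75 and 3.37 for HSP17.4. The overexpressors were not below WT at every heat shock gene, as AT1G53540 had 8.35 RPKM in OE1 and 5.12 in WT.

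Outside the lists, the genes furthest toward MI12 included AT1G72416, annotated as a DnaJ-domain chaperone, with 79.0 RPKM in MI12, 4.19 in MI3 and 72.2 in WT (3.95). AT3G23550, a MATE efflux family protein, had 21.6, 1.39 and 19.4 RPKM (3.24), and AT4G21870, an HSP20-like chaperone, had 162, 17.8 and 153 RPKM (3.12). MI12 was near WT at these genes. The thionins AT1G66100 and THI2.2, small toxic peptides, differed by 3.06 and 2.56. Toward MI3 stood GSTU11, a glutathione transferase, with 0.80 RPKM in MI12, 13.6 in MI3 and 1.64 in WT (-3.01), AT2G14230, uncharacterized, with 0.12, 9.73 and 0.12 RPKM (-3.26), and RTFL12, a small growth-regulating peptide, with 3.45, 29.8 and 3.64 RPKM (-2.79). COR413IM1, a cold-regulated protein of the inner chloroplast envelope, differed by -2.70.

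Few genes were 2-fold from WT in both lines. At a minimum of 5 RPKM in 1 of MI12, MI3 and WT, 8 genes were on opposite sides of WT and 19 on the same side, 6 above and 13 below it. The opposite-side genes were AT2G01021, bHLH38 and TAT3, with MI12 above and MI3 below WT, and AT4G33720, AT5G35480, AT5G50335, AT1G49570 and PNP-A, with MI3 above and MI12 below. Overexpressors also lay on both sides of WT at all of these except AT4G33720, though not always by 2-fold. AT4G33720, annotated in the family of pathogenesis-related protein 1, had 6.77 RPKM in MI12, 106 in MI3 and 17.95 in WT. PNP-A, a natriuretic peptide involved in water balance, had 4.58, 24.2 and 10.4 RPKM. Among the same-side genes besides MIR319a were the defensin PDF1.3, with 4.20 RPKM in MI12, 2.23 in MI3 and 29.2 in WT, and NEET, an iron-sulfur protein, with 20.4, 15.4 and 49.9 RPKM. THAS1, thalianol synthase, was above WT in both, with 14.8 RPKM in MI12, 31.4 in MI3 and 6.24 in WT.

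**Figure D5:**
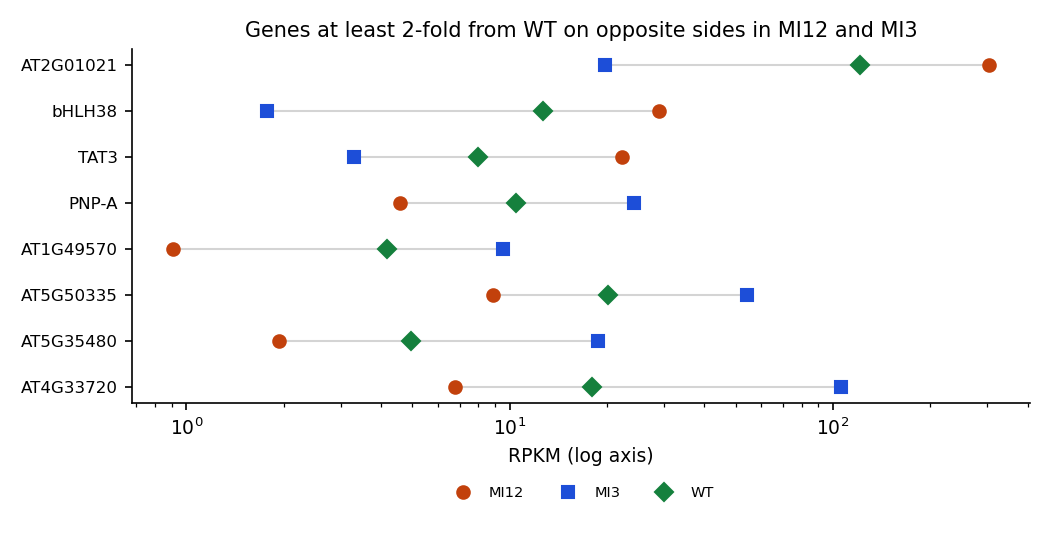
RPKM on a log axis in MI12, MI3 and WT of the 8 genes that were at least 2-fold from WT on opposite sides in the artificial miRNA lines. MI12 is to the right of WT for AT2G01021, bHLH38 and TAT3 and to its left for the other 5.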

How the data were processed

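RNA sequencing libraries were made from total RNA of whole seedlings with a TruSeq kit, per the labels' protocols. The authors deposited RPKM values in 1 table that has a single column for each genotype. The build named was TAIR 10, per the submitters' processing notes; not given in the sources used here are the aligner, counting tool, strand setting and how libraries were merged. RPKM were compared as deposited on the log2(RPKM + 1) scale, which understates differences of low genes. Low values were whole reads within 0.1 for 87.9% of MI12 and 90.9% of MI3 values with the gene span as length. Among genes with introns, the low values were whole for 67.3% of MI12 and 70.4% of MI3 values with the gene span, against 15.9% and 17.5% with the spliced length; the labels do not state the length used. A single WT cell without a number was read as 0. Of the identifiers, 32835 matched the TAIR10.1 annotation.

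The design had assumed tests on values per library, which 1 value per genotype does not allow. The members and gene lists were chosen with earlier results of these data known. Named genes were the PTB genes and miR319 list, the 10 furthest apart on each side at 5 RPKM or more plus the next 5 with a symbol, up to 15 on either pattern around WT, and up to 3 per side of each list, or its 2 highest where none was past 2-fold; PAP1, CBF1, CBF2, DREB1A, NPC5 and other list members were named to account for the filter or to show the list. Near-identical copies, and overlapping or antisense genes, are uncertain. Simulated columns with counting noise alone were used to test the scripts. Alternatives were pseudocounts of 0.1 and 0.5, other filters, median-of-ratios and quantile scaling, and leaving out organelle and ribosomal RNA genes. The software was Python 3.11.15 with scipy 1.17.1, pandas 2.3.3, numpy 2.4.6 and, for plots, matplotlib 3.10.9.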

Additional observations from a re-analysis of the deposited data

Results flagged for a closer look

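The 8 genes below stood out because MI12 and MI3 were each at least 2-fold from WT and on opposite sides of it; the difference was not tested, since each genotype has 1 value, and both lines share the WT column. The log2 difference, MI12 minus MI3, was 3.88 for AT2G01021, which had 304 RPKM in MI12, 19.7 in MI3 and 121 in WT. It lies at chr2:6571-6672, beside ribosomal RNA genes, and the neighbouring AT2G01020 had 570 RPKM in MI12, 146 in MI3 and 328 in WT. In OE1, OE2 and OE3, AT2G01021 had 25.4, 326 and 38.9 RPKM, and AT2G01020 had 147, 497 and 188. The difference was 3.43 for bHLH38, the iron regulator, and 2.44 for TAT3, the tyrosine aminotransferase. TAT3 had 3.93 RPKM in OE1, 21.4 in OE2 and 3.11 in OE3. At all 8 genes except AT4G33720 the overexpressors, too, lay on both sides of WT, though not always by 2-fold. The difference between the lines was -3.78 for AT4G33720 and -2.17 for PNP-A. AT1G49570, annotated as a peroxidase, differed by -2.47, with 0.91 RPKM in MI12, 9.56 in MI3 and 4.18 in WT. AT5G35480 and AT5G50335, both uncharacterized, differed by -2.76 and -2.48, with 1.93 and 8.88 RPKM in MI12, 18.8 and 54.1 in MI3, and 4.95 and 20.2 in WT.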

How the results depend on the processing

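Under the 8 other settings chosen at the start no named gene past 2-fold, and no list median of at least 0.5 in size, changed direction; the 2 chosen after seeing the data were run for the counts of genes alone. Smaller list medians turned sign for touch genes (-0.40 with no filter or 1 RPKM in MI12 or MI3), flowering genes (0.11 with 5 RPKM in 2 columns, 0.02 with quantile normalization) and root endodermis genes (-0.01 with 1 RPKM in MI12 or MI3). With a pseudocount of 0.1 the count of genes 2-fold lower in MI12 was 907 and the count of these with WT nearer to MI12 was 785; such a pseudocount lets low genes pass, and the higher count was 498. The other alternatives gave 289 to 429 higher and 419 to 695 lower genes. Median-of-ratios and quantile scaling put the share of higher genes at 45.0% and 45.7%, against 38.03% as deposited. List medians left the interval over their members in 9 cases and not in 237, and values of named genes their counting interval in 112 cases and not in 824. A median that stayed inside was not thereby stable. The late anthocyanin median stayed inside while moving from -1.76 to -0.02, and the touch median while turning from 0.32 to -0.40. The late anthocyanin median ran from -2.50 with a pseudocount of 0.1 to -0.02 with 5 RPKM in 2 columns, and the seed median from 1.12 with no filter to 3.89 with a pseudocount of 0.1. The requirement that intervals lie wholly past 2-fold, and a floor of 5 RPKM in the higher line, were chosen after seeing the data. No paired analysis was possible because the table has 1 column per genotype, and for the same reason no library could be left out. Depth limits low genes more in MI3, with a median of 1047 reads per gene, than in MI12, with 2055.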

Other observations

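Genes 2-fold apart between the lines at which MI12 but not MI3 was 2-fold from WT numbered 23 above and 14 below, and some belong to no list described above; those named here were chosen after their values were seen. LHB1B1, an antenna protein of photosystem II, had 1297 RPKM in MI12, 365 in MI3 and 647 in WT. PORA, a protochlorophyllide reductase of seedlings in the dark, had 4.19 RPKM in MI12, 1.46 in MI3 and 0.775 in WT, and M17, a late embryogenesis protein, had 3.74, 1.105 and 1.23 RPKM. On the other side ELIP1, an early light-induced protein of chloroplasts, had 1.37 RPKM in MI12, 6.72 in MI3 and 4.40 in WT, and XTH19, which remodels cell walls, had 32.2, 87.1 and 66.7 RPKM.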
